A study of Mus musculus with 8 samples.

Results

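The 10 genes described here encode secreted or membrane-bound chemokines of the CXC and CX3C classes, chosen by gene symbol: Cxcl1, Cxcl2, Cxcl9, Cxcl10, Cxcl11, Cxcl12, Cxcl13, Cxcl14, Cxcl16 and Cx3cl1. They are 10 of the 19505 genes named on the array, each measured by a single one of its 22206 probes. Kidney RNA came from 4 NZBWF1 mice aged 28 weeks (replicates 6, 7, 8 and 9 in the labels) and 4 NZBWF1 mice aged 8 weeks (replicates 1 to 4), with 1 Clariom S Mouse array for each mouse. NZBWF1 mice are first-generation hybrids of New Zealand Black with New Zealand White parents, a model in which lupus nephritis arises spontaneously, and all 8 mice share this background. No treatment is named in the labels. Age is the one factor in the labels that separates the groups. Age itself, disease that comes with age and any batch that followed age cannot be told apart. Values are log2 RMA values (background-corrected, normalized intensities), and a difference of 1 is a 2-fold change. A probe's level depends on its sequence, so levels are compared between ages for 1 gene and never between genes.

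Chemokines bind heparan sulphate on cells and matrix and steer leukocytes through G-protein-coupled receptors. CXC ligands that carry a glutamate-leucine-arginine (ELR) motif, such as Cxcl1 and Cxcl2, draw neutrophils through Cxcr2. Cxcl9, Cxcl10 and Cxcl11 are induced by interferons and draw activated T cells and NK cells through Cxcr3. Cxcl12 and Cxcl13 place cells in bone marrow and lymphoid follicles through Cxcr4 and Cxcr5, and Cxcl16 and Cx3cl1 are made as transmembrane proteins that can be shed. In lupus nephritis, chemokines of this family are studied as signals that bring leukocytes into the kidney.

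Promoter sequences are given for the 3 kinds of ligand whose values are set side by side: the interferon-induced Cxcl9 and Cxcl10, the ELR ligands Cxcl1 and Cxcl2, and Cxcl13, which had the largest difference between the ages. Each line holds the 250 bases before the transcription start, read 5′ to 3′ on the gene's strand, from RefSeq on GRCm38.p6. Capitals mark matches on either strand to the NF-kappa-B consensus, to the interferon-stimulated response element core (GAAA, any 2 bases, GAAA) or to the gamma-activated sequence core TTCNNNGAA.
Cxcl9 (chr5:92328080-92328329, minus strand): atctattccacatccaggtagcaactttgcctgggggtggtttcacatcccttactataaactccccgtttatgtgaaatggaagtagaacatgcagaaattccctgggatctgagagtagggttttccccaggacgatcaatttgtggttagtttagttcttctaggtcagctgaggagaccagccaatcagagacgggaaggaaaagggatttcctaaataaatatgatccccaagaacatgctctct
Cxcl10 (chr5:92348890-92349139, minus strand): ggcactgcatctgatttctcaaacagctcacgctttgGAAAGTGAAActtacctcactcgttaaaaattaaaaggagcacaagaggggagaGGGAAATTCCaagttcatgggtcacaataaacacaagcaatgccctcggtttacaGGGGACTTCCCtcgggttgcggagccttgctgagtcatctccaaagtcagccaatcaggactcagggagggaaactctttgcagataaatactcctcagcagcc
Cxcl1 (chr5:90890995-90891244, plus strand): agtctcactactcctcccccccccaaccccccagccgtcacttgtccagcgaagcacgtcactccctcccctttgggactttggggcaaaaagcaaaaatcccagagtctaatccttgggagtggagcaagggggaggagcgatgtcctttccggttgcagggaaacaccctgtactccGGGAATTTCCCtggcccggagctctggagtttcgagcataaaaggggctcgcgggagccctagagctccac
Cxcl2 (chr5:90903649-90903898, plus strand): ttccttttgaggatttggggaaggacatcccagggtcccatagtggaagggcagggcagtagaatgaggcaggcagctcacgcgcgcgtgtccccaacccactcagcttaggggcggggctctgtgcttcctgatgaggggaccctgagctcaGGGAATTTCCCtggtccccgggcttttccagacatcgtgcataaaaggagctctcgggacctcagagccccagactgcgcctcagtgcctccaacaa
Cxcl13 (chr5:95956689-95956938, plus strand): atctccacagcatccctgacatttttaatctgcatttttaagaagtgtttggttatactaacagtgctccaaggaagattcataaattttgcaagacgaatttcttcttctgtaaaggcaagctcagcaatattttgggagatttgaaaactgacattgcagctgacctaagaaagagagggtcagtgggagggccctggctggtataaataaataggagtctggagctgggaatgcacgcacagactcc
The NF-kappa-B consensus was found in the promoters of Cxcl1, Cxcl2 and Cxcl10, which are 3 of the 8 members with a promoter in the RefSeq table, and in 7.01% of 27025 promoters of the same length. Cxcl1 and Cxcl2 each held 1 run of capitals, in which matches on the 2 strands overlap. In Cxcl10 the run nearest the start holds 3 overlapping matches and the one before it a single match. The response element core was found in Cxcl10, 213 to 204 bases before the start, and in Cxcl14, and in 3.04% of all promoters. The gamma-activated core was found in Cxcl14 alone among the members (7.18% of all promoters). Cxcl9 and Cxcl13 held none of these letters in this window.

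All 8 arrays carried a kidney profile. The summed level of 8 tubule and podocyte markers (among them Slc34a1, Umod, Aqp2 and Nphs1) was 20.6 to 20.8 on the log2 scale at 28 weeks and 20.8 to 20.9 at 8 weeks. That sum is set mainly by its brightest genes, such as Kap and Umod, and says little of Aqp2 or Nphs1. Slc34a1 and Kap were lower in all 28-week mice than in any 8-week mouse, and Slc12a1 was higher (4.33% and 4.38% of all probes). No marker of the list was called. Array medians were 5.98 to 6.14. On the first principal component (39.4% of the variance) 28-week replicates 6, 8 and 9 scored 31.8 to 59.9, while 28-week replicate 7, at -12.9, fell among the 8-week arrays (-39.5 to -7.66). On the second component (25.1%), 8-week replicate 1 stood alone at 65.1. Results are therefore given with and without these arrays.

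None of the 10 chemokine genes passed an adjusted p of 0.05 in limma, where 0.968% of all probes passed (0.446% as higher and 0.522% as lower). Cxcl10 and Cxcl16 lay just outside, at adjusted p of 0.0501 and 0.0516. All 10 differences were positive (48.4% of all probes were), and 5 were at least 2-fold: Cxcl13, Cxcl10, Cxcl9, Cxcl16 and Cx3cl1 (2.31% of probes), while none was 2-fold lower (0.865%). At an unadjusted p under 0.05, 6 members were higher and none lower, those 5 and Cxcl11, against 8.36% of all probes higher and 6.63% lower. In Cxcl10, Cxcl13 and Cxcl16 the 4 mice of 28 weeks lay above all 4 of 8 weeks, as in 4.38% of probes, and in no member were they all below (4.33%). The median log2 difference was 1.06 over the 10 members and -0.01 over all probes. Without 28-week replicate 7, Cxcl9, Cxcl10, Cxcl13, Cxcl16 and Cx3cl1 passed, in a fit that called 1237 probes (5.57%, with 3.63% higher) rather than 215. That mouse was singled out by these same data and was the lowest 28-week mouse in all 5 genes. Leaving it out raises their differences by construction, so the adjusted p given without replicate 7 lend no separate support. No member passed when any other single array was left out. In RNA from whole tissue, more cells of a type and more RNA per cell cannot be told apart.

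**Figure D1:**
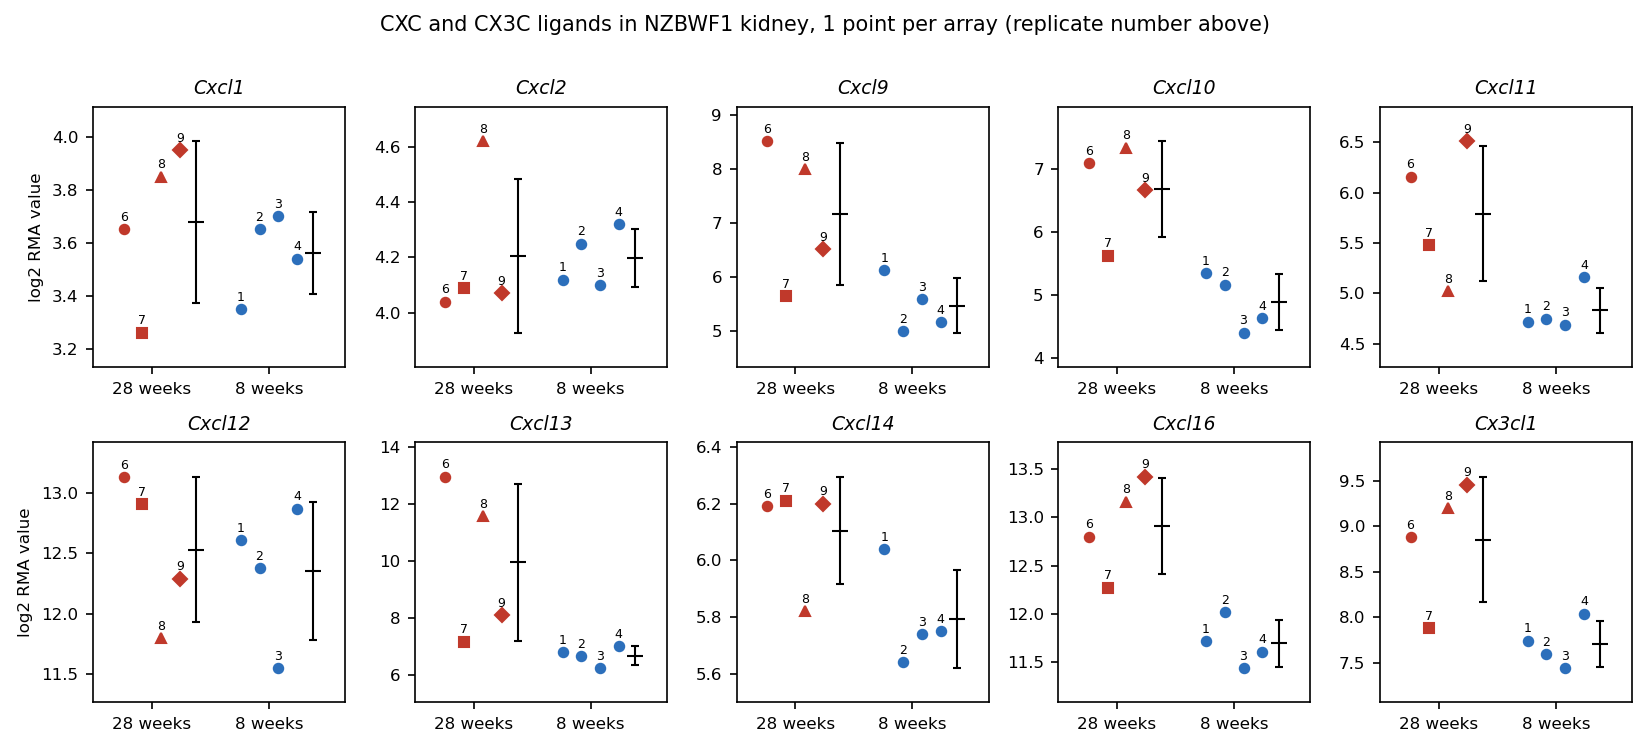
Log2 RMA value (vertical axes, a scale for each gene) of the 10 ligands in kidneys of 28-week (red) and 8-week (blue) mice, with replicate numbers above the points and the mean ± SD in black (n = 4 arrays for each age). In Cxcl10, Cxcl13 and Cxcl16 all red points lie above all blue points, and replicate 7 is the lowest red point in those 3 genes.

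**Figure D2:**
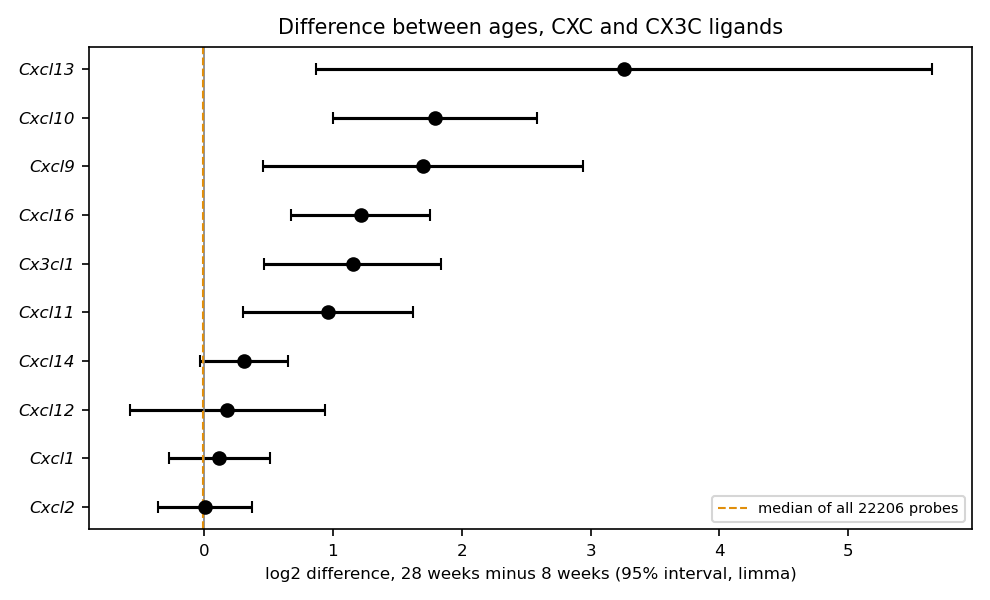
Log2 difference, 28 weeks minus 8 weeks, with its 95% interval from limma, sorted by size. The estimates run from 0.01 for Cxcl2 to 3.26 for Cxcl13, and the intervals of Cxcl1, Cxcl2, Cxcl12 and Cxcl14 include 0.

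The Cxcr3 ligands had higher means at 28 weeks, and none of the 3 passed the threshold. Cxcl10, also called IP-10, was 7.09, 5.62, 7.33 and 6.66 in 28-week replicates 6, 7, 8 and 9 and 5.34, 5.16, 4.40 and 4.63 in 8-week replicates 1 to 4. The lowest 28-week mouse, replicate 7, lay 0.28 above the highest 8-week mouse. The means were 6.675 ± 0.76 at 28 weeks and 4.88 ± 0.44 at 8 weeks (SD, n = 4 each), a difference of 1.79 with a standard error of 0.36, or 3.46-fold (95% interval 2.0 to 6.0). Only 0.563% of probes had a larger positive difference. An exact two-sided permutation test over the 70 arrangements of the 8 arrays gave p = 0.0286, the smallest it can give, for Cxcl10, Cxcl13 and Cxcl16 alike.

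Cxcl9, also called MIG, was 8.51, 5.64, 7.99 and 6.51 at 28 weeks and 6.12, 4.99, 5.58 and 5.16 at 8 weeks, in the same order of replicates. Replicates 6 and 8 were far above every 8-week mouse, replicate 9 was closer, and replicate 7 lay within the 8-week range, whose top was replicate 1. The difference was 1.70, or 3.25-fold (95% interval 1.38 to 7.67, adjusted p = 0.171). Without replicate 7 it was 4.62-fold (adjusted p = 0.0200). Cxcl11 was 6.16, 5.48, 5.02 and 6.51 at 28 weeks and 4.72, 4.75, 4.69 and 5.16 at 8 weeks. Here the low 28-week mouse was replicate 8, which had the highest Cxcl10. The difference was 0.96, or 1.95-fold (95% interval 1.24 to 3.07, adjusted p = 0.148), and it passed under none of the alternative settings. The RefSeq table, built on C57BL/6J, lists Cxcl11 as a transcribed pseudogene, and its state in NZBWF1 was not analysed here.

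Cxcl9, Cxcl10 and Cxcl11 lie next to each other on chromosome 5, with Art3 between Cxcl9 and Cxcl10. Their differences ran from 0.96 to 1.79, and those of the 7 measured genes among and beside them from -0.26 to 0.83. None of the ligands or of these 7 genes was called, and whether the ligands differed more was not tested. Art3, a member of the ADP-ribosyltransferase family, had 5.385 ± 0.38 at 28 weeks and 5.65 ± 0.33 at 8 weeks (difference -0.26, adjusted p = 0.665). Nup54, a nuclear pore gene on the side of Cxcl11, differed by 0.045 (adjusted p = 0.938). On the other side Sdad1 (0.565, adjusted p = 0.157) and Naaa (0.83, adjusted p = 0.170) had higher means. Both were higher at an unadjusted p under 0.05, as all 3 ligands were (8.36% of all probes). In Sdad1, as in Cxcl10, every 28-week mouse lay above every 8-week mouse (4.38% of all probes).

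The neutrophil-attracting ligands showed no difference that these 8 arrays could resolve. Cxcl1, also called KC, was 3.65, 3.26, 3.85 and 3.95 at 28 weeks and 3.35, 3.65, 3.70 and 3.54 at 8 weeks. Cxcl2, also called MIP-2, was 4.04, 4.09, 4.62 and 4.07 at 28 weeks and 4.12, 4.25, 4.10 and 4.32 at 8 weeks. The groups overlapped in both genes. The fold was 1.08 for Cxcl1 (95% interval 0.827 to 1.42, adjusted p = 0.835) and 1.01 for Cxcl2 (95% interval 0.781 to 1.29, adjusted p = 0.991), and the sign of Cxcl2 changed with the setting. Both probes were near the low end of the deposited values, whose minimum was 2.31, and RMA compresses the folds of dim probes. Whether the difference of the Cxcr3 ligands exceeds that of the ELR ligands was not tested.

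Cxcl1 and Cxcl2 belong to another cluster on chromosome 5 with Cxcl5, Ppbp, Pf4, Cxcl3 and Cxcl15. The 7 ligand genes of that cluster differed by -0.275 to 0.42, with none called. The platelet chemokine genes Ppbp and Pf4 had the smallest p of the 6 other CXC ligands. Ppbp was 3.53 ± 0.16 at 28 weeks and 3.11 ± 0.13 at 8 weeks (1.34-fold, adjusted p = 0.183). Pf4 was 6.135 ± 0.09 at 28 weeks and 5.785 ± 0.19 at 8 weeks (1.27-fold, adjusted p = 0.275). In both, the 28-week mice lay above all 8-week mice, as in 4.38% of all probes, but by only 0.03 in Ppbp and 0.04 in Pf4. The Ppbp probe was dim, and only 2.49% of probes had a lower 8-week mean. Of 7 measured neutrophil markers 1, Csf3r, was higher at an unadjusted p under 0.05, where 8.36% of all probes were. The summed level of these markers was 6.96 to 7.19 at 28 weeks and 6.62 to 7.08 at 8 weeks, so the groups overlapped.

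Cxcl13, the B cell attractant of lymphoid follicles, had the largest difference of the members and the widest spread. It was 12.95, 7.18, 11.58 and 8.10 in 28-week replicates 6, 7, 8 and 9, and 6.82, 6.67, 6.26 and 7.02 in the 8-week mice. Above the 8-week mean, replicate 6 stood by 6.26 and replicate 8 by 4.89, but replicates 9 and 7 by 1.41 and 0.49. Every 28-week mouse lay above every 8-week mouse, the lowest by 0.16. The SD was 2.75 at 28 weeks and 0.32 at 8 weeks. The difference of 3.26 was 9.58-fold with a 95% interval of 1.83 to 50.1 (adjusted p = 0.174). Of all probes, 11 had a larger positive difference. Without replicate 7 the fold was 18.2 (adjusted p = 0.0272), and without replicate 6 the log2 difference was 2.26 (adjusted p = 0.315).

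B cells carry Cxcr5. Of 7 measured B cell markers none was called and 3 (Blk, Cd79a and Cd79b) were higher at an unadjusted p under 0.05, where 8.36% of all probes were. The summed level of the B cell markers was 7.38 to 8.25 at 28 weeks and 7.20 to 7.58 at 8 weeks. Relative to 8 weeks, they were shifted on average by 0.989 in replicate 6, 0.253 in replicate 7, 0.283 in replicate 8 and 0.139 in replicate 9. Single markers varied, and in replicate 7 Blk (0.905) and Cr2 (0.695) had larger shifts than Cxcl13. Of 6 measured plasma cell markers none was called and 2, Jchain and Sdc1, were higher at an unadjusted p under 0.05, with a median difference of 0.284. Mzb1 differed by 0.55, Xbp1 by 0.045, Tnfrsf17 by -0.21 and Prdm1 by -0.34. Jchain, the immunoglobulin joining chain of plasma cells, was 12.79, 7.52, 10.47 and 5.83 at 28 weeks and 4.49, 4.47, 3.49 and 5.08 at 8 weeks (adjusted p = 0.0971), so replicates 6 and 8 were its highest mice as well. Its lowest 28-week mouse was replicate 9, where that of Cxcl13 was replicate 7. Replicates 6 and 8 were also the highest mice in some macrophage markers, such as Lyz2 and Itgam, but not in Fcgr1 or Ccr2. None of the 6 measured markers of follicular dendritic cells, which make Cxcl13 in follicles, differed at an unadjusted p under 0.05. Their summed level, set mainly by the tubule-expressed Clu, was 16.2 to 18.2 at 28 weeks and 16.8 to 16.9 at 8 weeks. The part of these cells in the Cxcl13 values was not tested.

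Cxcl12 and Cxcl14, both made in many tissues without inflammation, differed less. Cxcl12, the stromal ligand of Cxcr4, was 13.13, 12.91, 11.80 and 12.29 at 28 weeks and 12.61, 12.38, 11.55 and 12.87 at 8 weeks. Both ages spanned nearly the same range, 1.33 at 28 weeks and 1.32 at 8 weeks. The fold was 1.13 (95% interval 0.67 to 1.92, adjusted p = 0.879). Cxcl14, an epithelial chemokine, was 6.19, 6.21, 5.82 and 6.20 at 28 weeks and 6.04, 5.64, 5.74 and 5.75 at 8 weeks. In 3 of the 28-week mice it lay above every 8-week mouse, and replicate 7 was the highest mouse of all. The fold was 1.24 (95% interval 0.981 to 1.57, adjusted p = 0.383).

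The transmembrane ligands had higher means at 28 weeks with less spread than Cxcl9 or Cxcl13. Cxcl16, the ligand of Cxcr6 and a scavenger receptor for oxidized lipoprotein, was 12.80, 12.27, 13.16 and 13.42 in 28-week replicates 6, 7, 8 and 9 and 11.72, 12.02, 11.44 and 11.61 at 8 weeks. Replicate 7 again was the lowest 28-week mouse and lay 0.25 above the highest 8-week mouse. The means were 12.91 ± 0.50 at 28 weeks and 11.70 ± 0.24 at 8 weeks, a difference of 1.22 with a standard error of 0.24, or 2.32-fold (95% interval 1.60 to 3.38, adjusted p = 0.0516). Cx3cl1, or fractalkine, which tethers cells that carry Cx3cr1, was 8.88, 7.88, 9.20 and 9.46 at 28 weeks and 7.74, 7.59, 7.44 and 8.04 at 8 weeks. Replicate 7 lay within the 8-week range and the other 28-week mice above it. The difference of 1.15 was 2.22-fold (95% interval 1.38 to 3.57, adjusted p = 0.106), and 2.78-fold without replicate 7 (adjusted p = 0.00274).

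The 28-week mouse with the highest value was not the same for all ligands. Replicate 6 was highest in Cxcl9 and Cxcl13, replicate 8 in Cxcl10, and replicate 9 in Cxcl11, Cxcl16 and Cx3cl1. For Cxcl13 the range among the 28-week mice was 5.77, against 0.76 among the 8-week mice, and for Cxcl9 it was 2.87, against 1.13. For Cxcl16 the ranges were 1.15 at 28 weeks and 0.58 at 8 weeks.

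**Figure D3:**
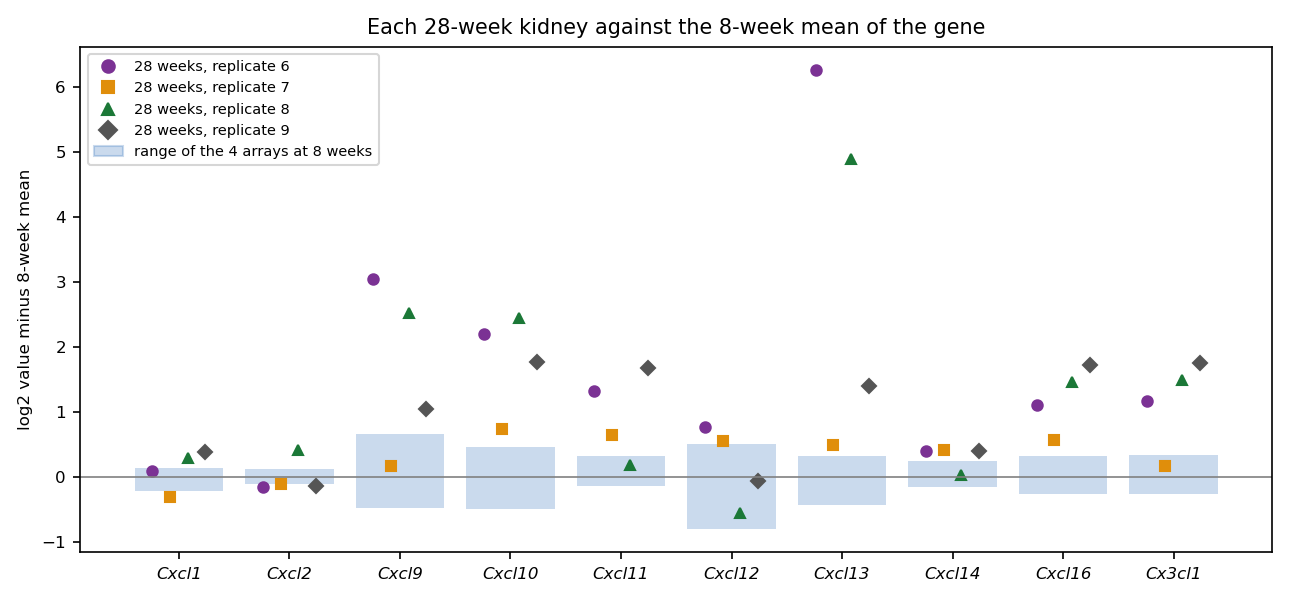
Log2 value of each 28-week kidney minus the 8-week mean of the gene (vertical axis), with 1 symbol for each mouse and a blue band for the range of the 4 arrays at 8 weeks. Replicates 6 and 8 stand 6.26 and 4.89 above the 8-week mean in Cxcl13, while Cxcl16 and Cx3cl1 are highest in replicate 9.

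Likeness of profile was measured as the mean absolute log2 difference between 2 genes over the 8 arrays, each gene minus its own 8-week mean. The comparison was with the 19495 named genes other than the members, the other CXC ligands included. Nearest to Cxcl10 were the interferon-induced gene Ifi27 (mean absolute difference 0.148, where the median gene had 1.09), the calcium-binding protein gene S100a6 (0.149) and the ubiquitin-conjugating enzyme gene Ube2c (0.164). Nearest to Cxcl16 were Myef2 (0.124, where the median gene had 0.748), Golm1, a Golgi membrane protein gene (0.126), and Serpinb9, an inhibitor of granzyme B (0.133). Nearest to Cx3cl1 were the small GTPase gene Rras (0.0969, where the median gene had 0.73), Dtx3l, a ubiquitin ligase gene (0.109), and Cd34, a gene of endothelial and progenitor cells (0.109). Of these 9 genes, S100a6 (adjusted p = 0.0464) and Myef2 (adjusted p = 0.0340) passed the threshold. The 9 were picked for matching a member over the same 8 arrays, so a similar difference between the ages follows from the choice. Their adjusted p therefore lend the members no separate support. The distance of the median gene also reflects the member's own difference between the ages. Between members, Cxcl16 and Cx3cl1 were the nearest of these pairs at 0.178. The member nearest to Cxcl10 was Cxcl16 (0.398), followed by Cxcl9 (0.476), Cx3cl1 (0.5225) and Cxcl11 (0.646). Cxcl11 was nearer to Cx3cl1 (0.29) and Cxcl16 (0.336) than to Cxcl10.

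Among 9 receptor genes none was called. Cx3cr1, the receptor of Cx3cl1 on monocytes and macrophages, was 5.76, 4.34, 6.22 and 6.27 at 28 weeks and 4.16, 3.98, 4.23 and 4.78 at 8 weeks. Like its ligand it was within the 8-week range in replicate 7 and above it in the other 28-week mice, at 2.57-fold on average (95% interval 1.41 to 4.68, adjusted p = 0.127). Without replicate 7 the fold was 3.47 (adjusted p = 0.00176). Cxcr3, the receptor of Cxcl9, Cxcl10 and Cxcl11, was 6.70, 6.70, 6.96 and 7.06 at 28 weeks and 6.24, 6.03, 6.47 and 6.87 at 8 weeks. The groups overlapped through 8-week replicate 4, and the fold was 1.37 (95% interval 1.01 to 1.85, adjusted p = 0.306).

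The other receptors differed by -0.02 to 0.505 on the log2 scale. Cxcr2, which binds Cxcl1 and Cxcl2, had 4.52 ± 0.26 at 28 weeks and 4.465 ± 0.12 at 8 weeks (adjusted p = 0.924). Cxcr6, the receptor of Cxcl16, had 3.765 ± 0.19 at 28 weeks and 3.555 ± 0.23 at 8 weeks (adjusted p = 0.629). Cxcr5, the receptor of Cxcl13, had 3.63 ± 0.39 at 28 weeks and 3.65 ± 0.27 at 8 weeks (adjusted p = 0.983). Cxcr4, which binds Cxcl12, was highest in 28-week replicate 6 at 7.38, with 5.96 to 6.45 in the other 28-week mice and 5.63 to 6.29 at 8 weeks (adjusted p = 0.501). Ackr3, the scavenging receptor of Cxcl12, differed by 0.035 (adjusted p = 0.967). The neutrophil receptor gene Cxcr1 had the same mean, 4.125, at both ages, and Ackr1, the Duffy antigen receptor gene, differed by 0.0675 (adjusted p = 0.880). Several of these probes were dim. The share of probes with a lower 8-week mean was 3.67% for Ackr1, 9.56% for Cxcr6 and 11.2% for Cxcr5. It was 20.8% for Cxcr1 and 27.7% for Cxcr2. RMA compresses the folds of dim probes, so these values cannot show that the receptors stayed the same.

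**Figure D4:**
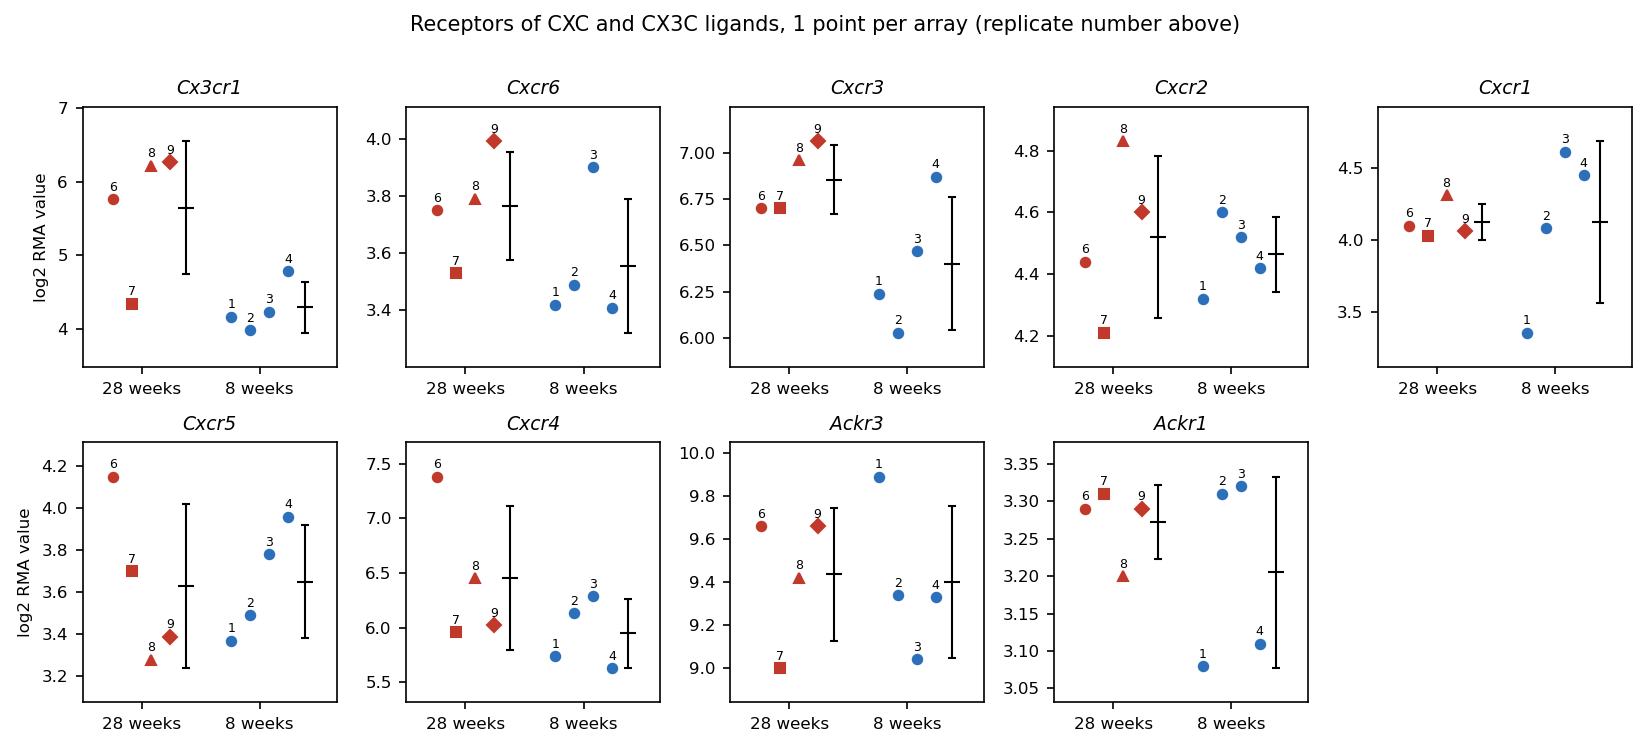
Log2 RMA value (vertical axes, a scale for each gene) of 9 receptors in kidneys of 28-week (red) and 8-week (blue) mice, with replicate numbers above the points and the mean ± SD in black (n = 4 arrays for each age). Cx3cr1 is above the 8-week range in replicates 6, 8 and 9, and the 2 ages overlap in all 9 genes.

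Of 62 measured pathway genes in 7 lists, the receptors included, none was called in limma, while 21 were higher and 1 lower at an unadjusted p under 0.05, where 8.36% of all probes were higher and 6.63% lower. In lists of 7 to 9 genes a single such gene is near that share. Without 28-week replicate 7, 15 were called, all with higher means (3.63% of all probes were called higher there), among them Cx3cr1, Gnai2, Rela, Irf1, Ifngr2 and Rac2. The limit of that fit given for the members applies here too. The closest to the threshold in all 8 arrays was Gnai2, the main inhibitory G protein of leukocyte chemokine receptors and also present in other cells, with 14.62, 13.78, 14.46 and 14.41 at 28 weeks and 13.33, 13.49, 13.39 and 13.42 at 8 weeks. All 28-week mice were above all 8-week mice, at 1.88-fold (adjusted p = 0.0557). In the list of receptor signalling genes 5 of 9 were higher at an unadjusted p under 0.05, with a median log2 difference of 0.875. Rac2, the leukocyte Rac GTPase, was 8.83, 4.31, 7.70 and 7.10 at 28 weeks and 4.96, 4.12, 4.40 and 5.12 at 8 weeks (adjusted p = 0.174), so replicate 7 was within the 8-week range and the other 28-week mice far above it.

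Lists of signalling genes upstream of the ligands hold inhibitors (Nfkbia, Tnfaip3, Zc3h12a and Socs1) as well as inducers. Their counts do not measure inducing activity. In the NF-kappa-B and cytokine list 6 of 11 measured genes were higher at an unadjusted p under 0.05 and none was called, with a median difference of 0.778. Rela, the p65 subunit of NF-kappa-B, was 11.82, 11.12, 11.73 and 11.81 at 28 weeks and 10.86, 10.74, 10.90 and 10.87 at 8 weeks (1.71-fold, adjusted p = 0.0752). The ages did not overlap, nor did they in the TNF receptor gene Tnfrsf1a (10.66 ± 0.47 at 28 weeks and 9.48 ± 0.43 at 8 weeks, 2.26-fold, adjusted p = 0.0776). In the interferon-gamma list 3 of 8 measured genes were higher at an unadjusted p under 0.05. Irf1, a transcription factor induced by interferon-gamma, was 8.85, 7.41, 9.14 and 8.98 at 28 weeks and 7.96, 7.17, 7.49 and 7.44 at 8 weeks (2.11-fold, adjusted p = 0.170). The receptor chain gene Ifngr2 was 1.49-fold higher on average (adjusted p = 0.200), and Ifng itself had 5.14 ± 0.17 at 28 weeks and 5.13 ± 0.13 at 8 weeks (adjusted p = 0.984).

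In the lymphotoxin and lymphoid list, whose signals induce Cxcl13 in lymphoid organs, all 10 differences were positive and none was called. A positive difference was found in 48.4% of all probes. The median difference of the list was 0.27, and the ages overlapped in every gene. Only 2 of the 10 were higher at an unadjusted p under 0.05 (8.36% of all probes). The smallest p were those of 2 NF-kappa-B subunit genes. Nfkb2 had 6.02 ± 0.45 in 28-week kidneys against 5.125 ± 0.63 in 8-week kidneys (adjusted p = 0.207), and Relb had 4.14 ± 0.22 in 28-week kidneys against 3.685 ± 0.20 in 8-week kidneys (adjusted p = 0.211). Ltb, a subunit of the lymphotoxin that acts through Ltbr, was 5.27, 4.79, 5.20 and 4.71 at 28 weeks and 4.79, 4.99, 4.73 and 4.64 at 8 weeks. In the list of processing and presentation genes 1 of 9 was higher and 1 lower at an unadjusted p under 0.05. Sdc1, a heparan sulphate proteoglycan gene, was 1.44-fold higher on average (adjusted p = 0.150). Dpp4, a peptidase that trims Cxcl9, Cxcl10, Cxcl11 and Cxcl12 at the amino end, was 11.75, 11.22, 11.64 and 11.83 at 28 weeks and 11.93, 12.01, 11.91 and 12.02 at 8 weeks (adjusted p = 0.324), so every 28-week mouse lay below every 8-week mouse, replicate 7 the furthest. Adam10 and Adam17, which shed Cxcl16 and Cx3cl1, differed by 0.13 and 0.285 (adjusted p = 0.778 and 0.591).

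Marker lists of cells that respond to these ligands are given with their counts, and their relation to the ligands was not tested. Of all probes, 8.36% were higher and 6.63% lower at an unadjusted p under 0.05, and 2.31% were at least 2-fold higher. A single such gene in one of the short lists below is near that share. Of 11 measured macrophage and monocyte markers, 10 were higher at an unadjusted p under 0.05, 9 were at least 2-fold higher, and none was called. Their summed level was 12.0 to 14.9 at 28 weeks and 11.2 to 11.9 at 8 weeks. That sum is set mainly by its brightest genes, such as Lyz2 and Csf1r. Relative to 8 weeks, the 11 markers were shifted on average by 3.40 in replicate 6, 0.0777 in replicate 7, 2.67 in replicate 8 and 2.55 in replicate 9. In replicate 7, Adgre1, Itgam, Fcgr1, C1qc and Mrc1 lay below their 8-week means and the other measured markers above theirs. Of 7 measured T cell markers 4 were higher at an unadjusted p under 0.05, with a summed level of 8.08 to 8.97 at 28 weeks and 7.90 to 8.19 at 8 weeks. The NK cell list gave 1 of 7 and overlapped between the ages (6.87 to 7.09 at 28 weeks, 6.65 to 7.07 at 8 weeks). For the endothelium, a source of Cx3cl1, 2 of 7 markers were higher and 1 lower, with a summed level of 15.0 to 15.6 at 28 weeks and 14.7 to 15.0 at 8 weeks. The other lists gave none called either: 1 of 7 dendritic cell markers was higher at an unadjusted p under 0.05 (Xcr1), 0 of 6 of fibroblasts and pericytes, 0 of 5 of the adrenal gland, and 1 of 4 of adipose tissue, with 1 lower. RMA gives no detection call, so no marker can be called absent. The part of any of these cells in the chemokine values was not tested.

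**Figure D5:**
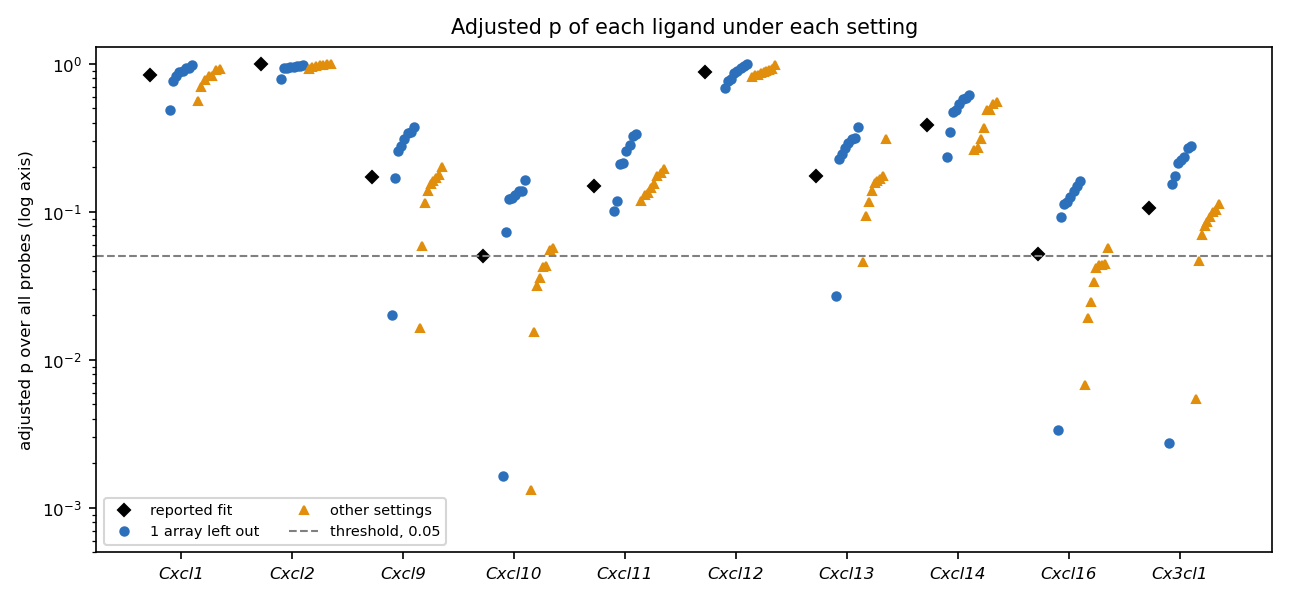
Adjusted p over all probes (vertical log axis) of each ligand in the reported fit (diamond), with 1 array left out (circles) and under the other settings (triangles), with the threshold of 0.05 dashed. Cxcl10 and Cxcl16 lie at 0.0501 and 0.0516 in the reported fit and on both sides of the line under the others, and the lowest circle of both is the fit without 28-week replicate 7.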

How the data were processed

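Kidney RNA of 8 mice was measured on 1-colour arrays. The deposited values are log2 expression values made by the authors with RMA, per the submitters' processing notes (version not given in the sources used here). A base of 2 was taken for the logarithm, as is usual for RMA, and every fold given rests on that. Scan dates and batches were not analysed here.

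The platform annotation gave 19572 probes a gene symbol; 55 genes had several probes, and the brightest stood for the gene. The log2 difference, 28 weeks minus 8 weeks, was fitted for all 22206 probes without a filter with lmFit and eBayes in limma 3.58.1 (R 4.3.3), Benjamini-Hochberg adjusted over all probes. No replicate number occurs at both ages, so the fit is unpaired, and each array is 1 mouse per the series' design. The number of arrays limits the precision. Figures used matplotlib 3.10.9 in Python 3.11.15.

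The members, the lists, the rule for naming genes (all members; in each pathway list the genes past the threshold or the 2 with the smallest p, with the receptors of the members; for the 3 members with the smallest p, the 3 genes nearest in profile) and the alternatives were chosen with earlier results of these data known. Genes named beyond that rule (Ifng, Csf3r, Xcr1, Ltb, Adam10, Adam17, the neighbours on chromosome 5, Jchain and the markers) were chosen for their role or position after the values were seen. The code was tested on simulated data.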

Additional observations from a re-analysis of the deposited data

Results flagged for a closer look

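Among the 20 sets of 4 arrays formed by the 10 ligands at the 2 ages, 3 held an array whose gap to the nearest other array, as a share of the range, exceeded Dixon's 95% critical value. Chance flags about 1 set in 20. Cxcl2 was 4.62 in 28-week replicate 8, with 4.04 to 4.09 in the other 28-week mice. Cxcl14 was 5.82 in the same mouse, with 6.19 to 6.21 in the others. Cxcl11 was 5.16 in 8-week replicate 4, with 4.69 to 4.75 in the other 8-week mice.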

How the results depend on the processing

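No paired analysis was possible because the ages share no replicate number. The number of ligands called higher was 0 with array medians aligned, 1 (Cxcl16) after quantile normalization or without the dimmest 50% of probes, 2 (Cxcl10 and Cxcl16) with ribosomal protein genes aligned, without the dimmest 33.3% of probes, with trend and robust options or with 1 probe per gene, 3 with array weights (Cx3cl1 added), and 5 without 8-week replicate 1 and 28-week replicate 7. With 1 array left out it ranged from 0 to 5, and all 5 came without 28-week replicate 7; the others gave 0. No ligand was called lower under any of these settings. Calls over all probes, 215 as reported, were 399 without the dimmest 50%, 399 with trend and robust options, 873 with array weights, 1384 without both arrays and 25 to 1237 with 1 array left out. Pathway genes called, 0 as reported, were 1 without the dimmest 33.3% and with 1 probe per gene, 3 without the dimmest 50% and with trend and robust options, 5 with array weights, 16 without both arrays and 0 to 15 with 1 array left out. Cxcl2 changed sign with array medians aligned (-0.054), with ribosomal protein genes aligned (-0.016), and without 8-week replicate 1 (-0.018), 8-week replicate 3 (-0.025) or 28-week replicate 8 (-0.13). Cxcl12 did so with array weights (-0.015) and without 8-week replicate 3 (-0.0875) or 28-week replicate 6 (-0.019). With 1 array left out, Cxcl2 ranged from -0.13 to 0.0625 and Cxcl12 from -0.0875 to 0.424. The cause was not tested. The log2 difference ranged from 1.57 to 2.30 for Cxcl10, 1.05 to 1.44 for Cxcl16 and 2.26 to 4.23 for Cxcl13. Cxcl1, Cxcl2, Cxcl10, Cxcl11 and Cxcl14 are among the dimmest 50% of probes and Cxcl1 and Cxcl2 among the dimmest 33.3%, so they have no value under those filters.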
